A study of Mus musculus with 2 samples.

Results

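The 2 mature arms of the microRNA miR-504, mmu-miR-504-5p and mmu-miR-504-3p, were examined in cultured aortic smooth muscle cells of diabetic and control mice. They were taken by name from the 1909 mature microRNA names in each deposited file, and both were present. The series is titled for miR-504, so its level is given as a description of these libraries and not as independent evidence. Small RNA was sequenced from 2 libraries, 1 per group, here called control and diabetic. The db/+ library came from control mice labelled Lepr+/-, and the db/db library from type 2 diabetic mice labelled BKS.Cg-m+/+Leprdb/J. In db/db mice the leptin receptor does not work, and the animals become obese and diabetic, while db/+ mice keep 1 working copy. Per the labels, the mice of both groups were males of 10 to 12 weeks, and smooth muscle cells of the thoracic aorta were cultured in DMEM/F-12 medium with 10% fetal bovine serum and antibiotics. How many mice each culture came from is not stated in the sources used here, and cultured cells are no direct measure of the vessel wall.

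A microRNA is a short RNA cut from a hairpin transcript in successive steps, the first in the nucleus by Drosha and the second in the cytoplasm by Dicer. Either arm of the hairpin (5p or 3p) can be loaded into an Argonaute protein, where its seed, bases 2 to 8, pairs with target messenger RNAs and lowers their output. The human miR-504 is known for targeting the tumour suppressor p53. Its hairpin lies inside Fgf13, which encodes an intracellular relative of the fibroblast growth factors and is best known from neurons and heart muscle.

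The hairpin is shown because both arms are cut from it. In the RefSeq table for GRCm38.p6, Mir504 is on the minus strand at chrX:59097658-59097736, and GENCODE M21 gives the same positions. Its 79 bases are printed with the 5p arm in capitals.
Mir504 hairpin: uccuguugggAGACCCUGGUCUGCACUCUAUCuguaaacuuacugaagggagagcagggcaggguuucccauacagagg
The 5p arm covers bases 11 to 32 of the hairpin, at chrX:59097705-59097726. In the predicted fold of lowest energy (-45.0 kcal/mol), 19 of its 22 bases were paired, with partners between bases 45 and 67. The locus lies in an intron of Fgf13 and overlaps no exon of the 4 Fgf13 transcripts that span it. That intron is 58294 bases long, and the hairpin is 28157 bases from the exon before it and 30058 bases from the exon after it in the direction of transcription.

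The mature 5p arm is shown with its seed in capitals, above the microRNAs nearest to it in sequence, since a close relative could draw its reads.
miR-504-5p: aGACCCUGgucugcacucuauc
miR-7068-3p: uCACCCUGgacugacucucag
miR-704: aGACAUGUgcucugcuccuag
miR-100-5p: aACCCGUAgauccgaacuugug
Among 1622 other names of the files with a sequence in the table, 0 had the same bases 2 to 8 and 0 the same bases 2 to 7. The nearest, miR-7068-3p, differed by 7 single-base edits and the next, miR-704, by 8, and both had 0 counts in each library. The smallest distance to a detected name was 9 edits, shared by 7 names including miR-100-5p. The 7 seed letters stood elsewhere in 3 names, of which miR-1954 had 5 counts in control cells and 3 in diabetic cells and the other two had 0. No name with a near-identical sequence was therefore found for the 5p arm among the names with a sequence. The table held no mature sequence of miR-504-3p, so the 3p arm was not compared. The arm starts with A, as did 30.8% of the 286 sequences with at least 50 counts in a library, while 40.6% started with U. Of its 22 bases 12 were G or C (54.5%), beside a median of 47.8% over the same sequences.

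The counts were low in both libraries and higher in diabetic cells. MicroRNA counts totalled 25915732 over 881 detected names in db/+ and 24295112 over 833 in db/db. In control cells miR-504-5p had 17 counts, or 0.656 CPM (counts per 1000000 microRNA counts), with an exact Poisson 95% interval of 0.382 to 1.05 CPM. In diabetic cells it had 146 counts, or 6.01 CPM (5.07 to 7.07). The 2 intervals did not overlap. At the db/+ rate, 15.9 counts of miR-504-5p would stand in a library as deep as the db/db one.

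For miR-504-3p there were 15 counts in control cells, or 0.579 CPM (0.324 to 0.955), and 64 in diabetic cells, or 2.63 CPM (2.03 to 3.36). These intervals were also apart. Both arms together had 32 counts in control cells (1.23 CPM, 0.845 to 1.74) and 210 in diabetic cells (8.64 CPM, 7.51 to 9.90). Since no molecular identifiers marked PCR copies, all intervals here cover counting error only. With 1 library per group the difference has no replicate check, and no p-value was computed. In a bulk culture, more cells that make miR-504 and more miR-504 per cell cannot be told apart.

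**Figure D1:**
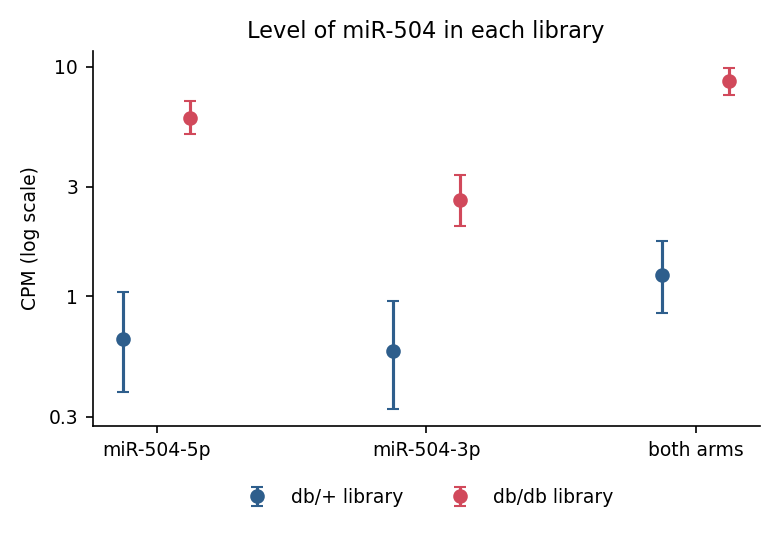
Level of each miR-504 arm and of both together, in CPM on a log axis, for the db/+ library (blue) and the db/db library (red); bars are exact Poisson 95% intervals of the counts. The db/+ points lie between 0.579 and 1.23 CPM and the db/db points between 2.63 and 8.64 CPM, and the bars of the 2 libraries are apart for each arm.

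As a ratio of db/db over db/+ with its exact conditional 95% interval, miR-504-5p was 9.16 (5.53 to 16.2) and miR-504-3p 4.55 (2.56 to 8.60). Their log2 ratios, with 0.5 counts added, were 3.16 and 2.15. The summed arms had a ratio of 7.0 (4.81 to 10.5). Under 7 other scalings the ratio of the 5p arm lay between 9.10 and 9.80 and that of the 3p arm between 4.52 and 4.87. These shifts were far smaller than the counting intervals. Both arms are cut from 1 hairpin, so they are not independent measures of its transcription.

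The place in the abundance order uses no scaling between the libraries. By counts, miR-504-5p ranked 457 in control cells, tied with 7 other names, and 239 in diabetic cells. The 3p arm ranked 470 and 304. In control cells both arms thus stood near the middle of the detected names, and in diabetic cells they stood higher. Even there miR-504-5p had far fewer reads than the smooth muscle microRNA miR-143-3p, a regulator of the contractile state, which had 1202 CPM in control cells and 1167 CPM in diabetic cells.

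**Figure D2:**
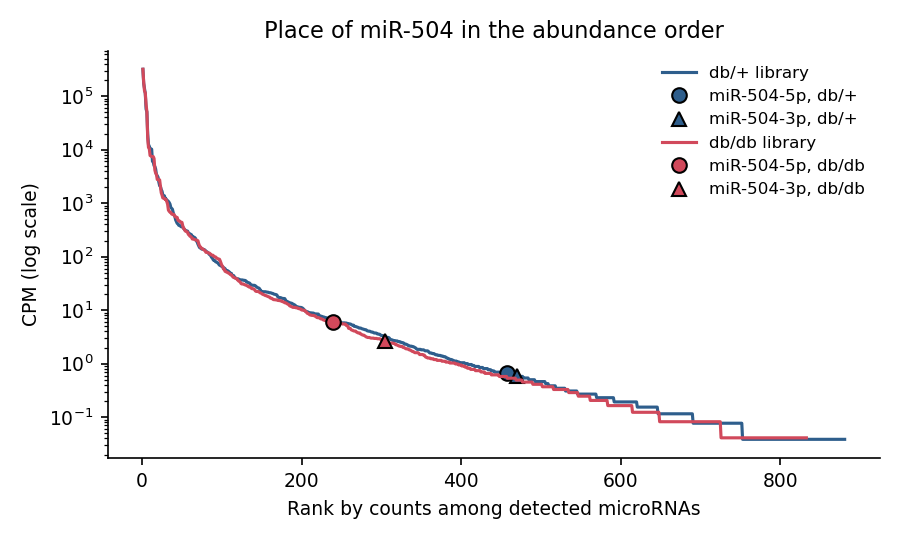
CPM on a log axis against rank by counts for all detected microRNAs of the db/+ library (blue, 881 names) and the db/db library (red, 833 names), with the miR-504 arms marked. The 5p arm (circles) stands at rank 457 in control cells and 239 in diabetic cells, and the 3p arm (triangles) at 470 and 304.

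The background was taken over the 356 names that reached 50 counts in 1 library or both. Of these, 16 had a ratio of at least 2 (4.49%) and 48 a ratio of at most 0.5 (13.5%). Both miR-504 arms were among the 16, at places 4 and 6 from the highest ratio. A ratio of at least 4 was reached by 6 names (1.69%), again with both arms among them. The median log2 ratio of all 356 was -0.14. Both arms reached 50 counts in diabetic cells only, so they entered this set through the library in which they were high.

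Hairpins with both arms past that floor numbered 83, and 2 of them (2.41%) had both arms at a ratio of at least 2. They were miR-504 and miR-676, which is also X-linked, with ratios of 2.74 for its 5p and 3.57 for its 3p arm. Both miR-504 arms and miR-676-5p (23 counts in control cells and 59 in diabetic cells) passed the floor in diabetic cells only. These hairpins thus entered the 83 through the library in which they were high, and the 2 arms of a hairpin are not independent. Both arms were at a ratio of at most 0.5 in 3 hairpins, miR-210, miR-669a and miR-9.

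**Figure D3:**
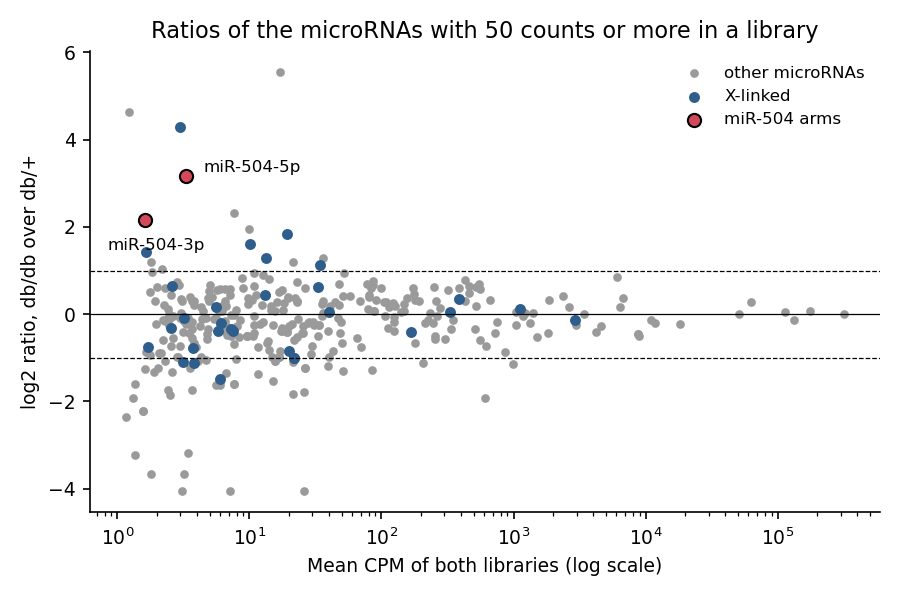
Log2 ratio of db/db over db/+ (0.5 counts added) against the mean CPM of both libraries on a log axis, for the 356 names that reached 50 counts in a library; X-linked names are blue, the miR-504 arms red, and dashed lines mark a ratio of 2 and of 0.5. The miR-504 arms sit at 3.16 and 2.15, at the low end of the abundance range.

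The arms did not hold the same share of the hairpin in the 2 libraries, but the shift was within counting error. In control cells 17 of 32 counts were on the 5p arm, a share of 53.1% with an exact Clopper-Pearson 95% interval of 34.7 to 70.9. In diabetic cells the share was 69.5% (62.8 to 75.7) of 210 counts, a difference of 16.4 percentage points. The intervals overlapped. The 5p arm had 1.13 reads for each 3p read in control cells and 2.28 in diabetic cells, a ratio between these of 2.01 with an exact conditional interval of 0.874 to 4.57. Since this interval includes 1, the ratios of 9.16 and 4.55 could not be distinguished from each other at this depth.

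Among 222 hairpins with at least 30 counts in each library, which include miR-504, 23 (10.4%) had a 5p share that differed by at least 10 percentage points. The median absolute difference was 0.847 points. A difference as large as that of miR-504 or larger, in either direction, was seen in 10 of the other 221 (4.52%). The 222 include hairpins with shares near an end of the scale, such as miR-140 (0.015% in control cells) and let-7b (99.999%). Their shares rest on far more counts than the 32 of miR-504 in control cells. The 4.52% and the median are therefore no measure of how unusual the miR-504 shift is. The planned floor of 50 counts leaves miR-504 out, so the floor of 30 was used here. The nearest shifts belonged to miR-377, with 16.6 points on 267 and 105 counts, to miR-132 with 16.9 points, and to miR-369 with 14.8 points. Unlike miR-504, miR-377 had ratios below 1 on both arms, 0.923 for the 5p and 0.339 for the 3p arm, and so did miR-132, with 0.598 and 0.2996.

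**Figure D4:**
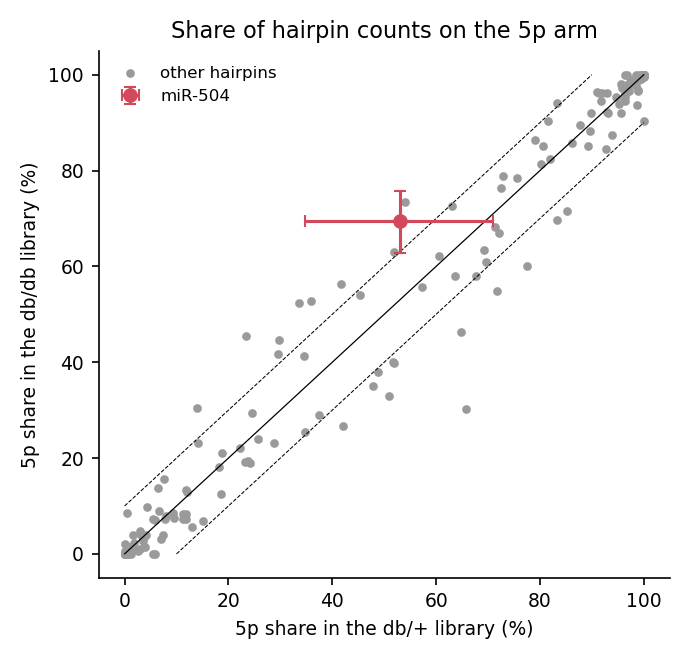
Percent of each hairpin's reads that came from the 5p arm, diabetic library against control library, for 222 hairpins with at least 30 counts in each; the bars on miR-504 (red) are exact 95% binomial intervals, and dashed lines mark 10 points from equality. The miR-504 point lies at 53.1% and 69.5%, above the upper dashed line, and its horizontal bar crosses the line of equality.

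Position on chromosome X was used to find what else lay near miR-504. The nearest detected X-linked names were the arms of miR-505, 1.30 Mb away. For miR-505-5p there were 170 counts in control cells and 121 in diabetic cells, a ratio of 0.759 (0.596 to 0.964), and miR-505-3p had 1 count in each. The next lay 6.04 Mb away on the other side, in the miR-322 and miR-503 cluster, known for restraining the cell cycle. There miR-322-5p had a ratio of 0.554 (0.485 to 0.633), miR-322-3p 1.27 (1.24 to 1.31) and miR-503-5p 1.04 (1.01 to 1.07). The cluster also holds miR-351, with a ratio of 2.19 (1.98 to 2.43) for miR-351-5p and 1.55 (1.40 to 1.71) for miR-351-3p, which is named here after its value was seen. The same cluster holds miR-542-3p, miR-450b-3p and miR-450a-5p, 6.05 Mb away and likewise named after their values were seen. Their ratios were 0.804 (0.556 to 1.16), 0.767 (0.622 to 0.945) and 0.455 (0.329 to 0.623), in that order. Of the named neighbours past 50 counts, miR-351-5p alone had a ratio of at least 2 and miR-450a-5p alone a ratio of at most 0.5. The neighbours thus lay on both sides of 1, and the intervals of all those past 50 counts were below those of both miR-504 arms.

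Over the whole chromosome, 157 names had all their positions on X, and 32 were past the 50-count floor. Of the 32, 8 (25%) had a ratio of at least 2, beside 4.49% of all 356 and 2.30% of the 304 autosomal names. Without the miR-504 arms it was 6 of 30 (20.0%). A ratio of at most 0.5 was seen in 3 of 32 (9.38%), namely miR-361-5p, miR-450a-5p and miR-652-3p, beside 13.5% of all. The median log2 ratio of the 32 was -0.02, and 16 ratios were above 1 and 16 below. The higher names came from 6 hairpins, so they are fewer than 8 separate loci. Of these hairpins, miR-224 and miR-452 lie close together, both 13.16 Mb from miR-504. Like the miR-504 arms, miR-672-5p and miR-676-5p passed the floor through the diabetic library. Positions were matched for all but 17 of the 356 names.

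The X-linked names at a ratio of at least 2 are shown with their seeds in capitals, next to the autosomal miR-146a-5p, to let their seeds be compared with that of miR-504-5p. The other X-linked names at such a ratio were miR-504-3p and miR-676-5p.
miR-672-5p: uGAGGUUGguguacuguguguga
miR-676-3p: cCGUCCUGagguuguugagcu
miR-224-5p: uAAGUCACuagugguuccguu
miR-452-5p: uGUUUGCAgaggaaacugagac
miR-351-5p: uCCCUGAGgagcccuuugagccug
miR-146a-5p: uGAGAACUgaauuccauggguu
Of the 16 names at a ratio of at least 2, 12 had a sequence, and the 12 had 12 different seeds. The highest X-linked ratio was that of miR-672-5p, with 7 counts in control cells and 138 in diabetic cells. In diabetic cells its 5.68 CPM were close to the 6.01 CPM of miR-504-5p. Counts were 219 and 733 for miR-676-3p, 128 and 368 for miR-224-5p, 201 and 460 for miR-452-5p, and 561 and 1151 for miR-351-5p.

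**Figure D5:**
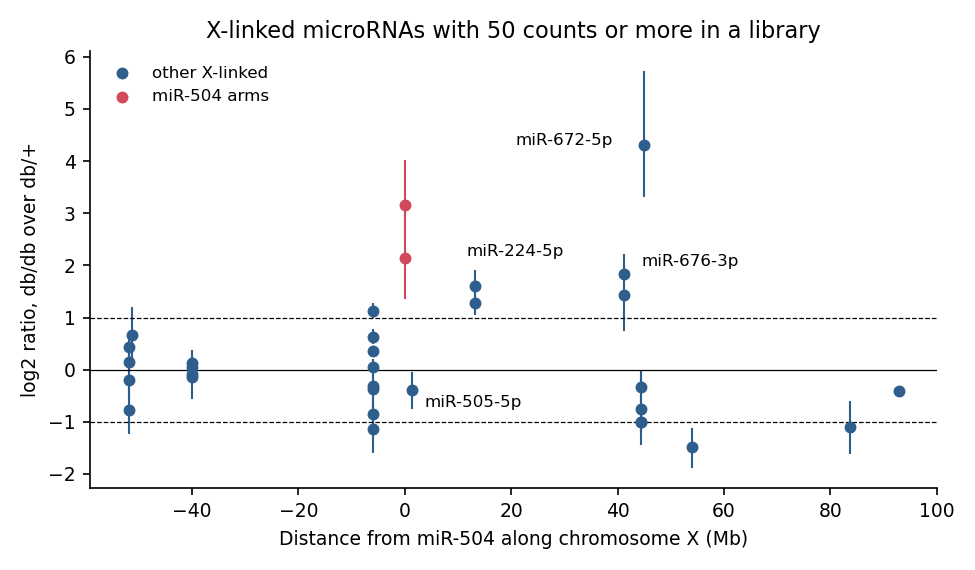
Log2 ratio of db/db over db/+ with exact 95% intervals for the 32 X-linked names with at least 50 counts in a library, against distance from miR-504 in Mb; dashed lines mark a ratio of 2 and of 0.5. The miR-504 arms (red) stand above miR-505-5p, their nearest neighbour at 1.30 Mb, and 8 of the 32 points lie above the upper dashed line.

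The microRNAs whose ratio was most like that of miR-504-5p were named by the distance between log2 ratios, over the single contrast of these 2 libraries, with the other arm of miR-504 left out. The nearest was miR-146a-5p, a brake on inflammatory signalling, with 65 counts in control cells and 308 in diabetic cells, a ratio of 5.05 (3.86 to 6.71), at a distance of 0.83. It was followed by miR-672-5p (1.14), miR-181a-2-3p (1.21), miR-676-3p (1.32) and miR-126a-5p (1.48). Leaving out miR-504-3p, whose interval also overlapped that of miR-504-5p, 3 names past the floor had an overlapping interval. For miR-504-3p the nearest were miR-146a-5p (0.18) and miR-181a-2-3p (0.20), then miR-676-3p, miR-224-5p and miR-676-5p. The interval of miR-504-3p overlapped those of 12 names, miR-504-5p again left out.

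Other microRNAs known for targeting p53 had ratios on both sides of 1. Of the 8 in that list, 7 were past the floor, 1 had a ratio of at least 2 (miR-504-5p itself), and 2 a ratio of at most 0.5, beside 4.49% and 13.5% of all 356 names. The single higher member is thus the microRNA under study. The median log2 ratio of the 7 was -0.18, beside -0.14 over all. The abundant members were miR-125b-5p, at 3407 CPM in control cells and 3443 CPM in diabetic cells, and miR-25-3p, at 2045 and 2726 CPM. Values of 0.880 (0.862 to 0.898) were found for the ratio of miR-30d-5p and 0.862 (0.731 to 1.01) for that of miR-33-5p. The 2 at a ratio of at most 0.5 were miR-15a-5p at 0.290 and miR-16-5p at 0.461. Below the floor, miR-380-5p had 16 counts in control cells and 31 in diabetic cells, a ratio of 2.07 (1.10 to 4.05).

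Earlier work on cultured db/db aortic smooth muscle cells described miR-125b and the miR-200 family as raised. Here miR-125b-5p had a ratio of 1.01 (1.001 to 1.02). Of the miR-200 family, known for targeting Zeb repressors, 5 names were taken, all of them 3p arms. They summed to 6 counts in control cells and 22 in diabetic cells, a ratio of 3.91 (1.54 to 11.8). Of these, miR-200a-3p had 3 and 12 counts, miR-200b-3p 0 and 7, miR-200c-3p 1 and 2, miR-141-3p 2 and 0, and miR-429-3p 0 and 1. These 5 names together thus had fewer counts than miR-504-3p in either library, and the 5p arms of the family were not summed.

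The letters that pair with the miR-504-5p seed were looked for in 3' untranslated regions of 3 genes chosen from reports of miR-504 targets after the counts had been seen. The motif was CAGGGTC, on the transcript strand only. In the longest GENCODE M21 region of Egr2, an early growth response transcription factor, it stood once, starting at base 865 of 1200, at chr10:67541838-67541860 on the plus strand of GRCm38 for the stretch shown, with the motif in capitals.
Egr2 site: tgtgggcagtgttaaCAGGGTCt
It was not in the 2955 bases of Grb10, an adaptor of insulin receptor signalling, nor in the 565 bases of Trp53, the mouse p53 gene. Over all 20956 genes with such a region, 11.3% held the motif. Among genes with a region within 10% of the length, the share was 10.8% for the length of Egr2, 21.96% for that of Grb10 and 5.94% for that of Trp53. A match describes the letters only, and messenger RNA was not analysed here. Shorter matches, other parts of the transcripts and the 3p arm were not searched. The absence of the motif thus does not show that a gene is no target.

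Markers of the labelled cell type had similar summed levels in the 2 libraries, while the endothelial miR-126a-5p was higher where miR-504 was. The 4 smooth muscle names of miR-143 and miR-145 summed to 1656 CPM in control cells and 1567 CPM in diabetic cells. Most of the sum was miR-143-3p, with a ratio of 0.971 (0.956 to 0.987). The ratio was 1.32 (1.24 to 1.41) for miR-143-5p, 0.795 (0.771 to 0.819) for miR-145a-5p and 0.977 (0.822 to 1.16) for miR-145a-3p. Both endothelial names of miR-126a were detected and summed to 7 counts in control cells and 71 in diabetic cells (0.270 and 2.92 CPM), a ratio of 10.8 (4.99 to 27.9). Most of that sum in diabetic cells was miR-126a-5p, with 2 counts in control cells and 58 in diabetic cells, a ratio of 30.9 (8.19 to 261). Below the floor, miR-126a-3p had 5 and 13 counts, and its ratio of 2.77 had an interval of 0.928 to 9.94, which includes 1. All 7 epithelial names were detected in at least 1 library and summed to 0.463 and 1.19 CPM. That is 12 counts in control cells and 29 in diabetic cells, a ratio of 2.58 (1.28 to 5.55), with each name below the floor. The 7 blood names summed to 6.48 and 6.75 CPM, with miR-223-3p, miR-142a-3p and miR-144-3p at 0 in both. Among the 3 neural names, relevant because Fgf13 is a neuronal gene, miR-124-3p had 28 counts in control cells and 61 in diabetic cells. Its ratio of 2.32 (1.46 to 3.78) was among the 16 of at least 2. The other names were lower in diabetic cells, as miR-9-5p had 347 and 19 counts and miR-9-3p 154 and 11. The 3 summed had a ratio of 0.183 (0.145 to 0.230), a sum made mostly of miR-9 in control cells, so it does not describe miR-124-3p. The heart names miR-208a-3p and miR-208b-3p had 0 counts in both libraries, and miR-499-5p had 5 and 3. The part of other cells in the miR-504 ratio was not tested.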

How the data were processed

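Each deposited table lists 1909 mature microRNAs with a raw read count and a TMM-normalized value, per the file headers. Novoalign, edgeR and mm10 stand in the submitters' processing notes without versions or roles. For trimming, multi-mapping and the catalogue, nothing is given in the sources used here. The deposited TMM values are whole numbers, about 0.939 times the count in db/+ and 1.06 times in db/db, and were treated as a score and used only as an alternative scaling. A count of 0, taken to allow 3 counts, allows 0.116 CPM for control and 0.123 CPM for diabetic cells.

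Counts were scaled to the library total. Intervals are exact (scipy 1.17.1). With 1 library per group no model could be fitted, so edgeR 4.0.16 and DESeq2 1.42.0 served for scaling factors only. The size rule was a ratio of at least 2 or at most 0.5 with at least 50 counts in a library. Hairpins were folded with ViennaRNA 2.7.2. RefSeq GRCm38.p6 positions matched 1866 of 1909 names, and 1623 had a mature sequence. The computation was tested on simulated counts with Poisson error only, which is the error the intervals assume. That test thus does not cover variation between libraries. Named microRNAs were both arms, the nearest in sequence (3), in ratio (5 per arm), in arm shift (3) and on chromosome X (5), X-linked names past the size rule, and list members. The other names past 50 counts in the miR-322 and miR-503 cluster were added. Members and lists were chosen with earlier results of these data known.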

Additional observations from a re-analysis of the deposited data

How the results depend on the processing

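Ratios of both miR-504 arms and of their sum did not leave their counting intervals under any scaling tried. The 5p share does not depend on the scaling of a library. One of these, scaling to the 4 miR-143 and miR-145 names, was chosen after seeing the data and gave 9.68 for the 5p and 4.81 for the 3p arm. With 5 counts added, the log2 ratios were 2.87 and 1.88. Thresholds moved the background counts by construction. Names at a ratio of at least 2 and at most 0.5 numbered 46 and 91 at a floor of 10 counts, 171 and 259 with no floor, and 11 and 35 at a floor of 100 counts. With the size rule set to 1.5-fold in place of 2-fold, 48 names were higher and 86 lower, and at 4-fold 6 and 10. At the floor of 100 counts miR-504-3p, with at most 64 counts, leaves the set, so the 11 hold miR-504-5p only of the arms. Of these 11, 6 were X-linked. With no floor, 15 X-linked names were higher and 12 lower, of 60 with counts. Over all names it was 171 and 259 of 967 with counts. The X-linked contrast at a ratio of at least 2 was thus smaller with no floor than at the floor of 50 counts. When scaled to the total without let-7, 5 X-linked names were lower. There miR-374b-5p and miR-374c-5p, which had identical counts and a ratio of 0.501, crossed 0.5. Hairpins with a 10-point arm difference were 20 at the planned floor of 50 counts, which leaves out miR-504, 36 at 10 and 72 with no floor. The low counts of both arms in db/+, at 17 and 15, limit the precision of the ratios. No paired analysis was possible because only 1 library stands in each group, so none could be left out either.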
